A study of Homo sapiens with 12 samples.

Results

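The small RNA data of the series list 15590 features, of which 4794 are loci that the authors reconstructed and 10796 are annotated RNAs. The loci described here are the reconstructed loci that fully contain, on the same strand, exactly 1 annotated RNA, and there are 608 of them. A further 4162 reconstructed loci contained no annotated RNA and 24 contained more than 1. The 608 loci hold 585 distinct annotated RNAs, because 18 RNAs lie in more than 1 of these loci. The measure of interest is the excess share, which is the percentage of a locus's fragments that were not counted in the annotated RNA inside it. Such fragments are called outside below, although some can overlap the annotated RNA. The choice among the listed features used their kind, position and strand, and no fragment count. It was made with earlier results of these data known. How the loci were reconstructed is not given in the sources used here, so whether their extents rest on these reads is unknown. Of the 608 loci, 14 had no fragment in any library, 119 had 1 to 59 over all 6 small RNA libraries, and 475 had at least 60 and were described.

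The study used HEK293, a human embryonic kidney line, carrying a stable doxycycline-inducible Flp-In T-REx cassette. The cassette makes recoded, C-terminally FLAG-tagged DIS3L2, either wild type (WT) or a catalytic mutant (mut), together with sh-miRNAs against the endogenous DIS3L2 mRNA. Both groups therefore carried the silencing construct and both received doxycycline at 100 ng/ml for 3 days. Each variant gave 3 small RNA libraries, with inserts of 20 to 200 nt per the labels, and 3 total RNA libraries depleted of rRNA. Whether a variant was represented by 1 clone or several, and whether replicates were separate cultures, is not given in the sources used here. So p-values here rest on the variation among libraries, part or all of which could be technical. In such bulk samples, fewer cells making an RNA and less of it per cell cannot be told apart.

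DIS3L2 is a cytoplasmic nuclease that degrades RNA from the 3′ end and prefers ends that carry added uridines. Many small non-coding RNAs are first made longer than their mature form. Spliceosomal snRNAs and the histone-processing U7 snRNA are transcribed with a 3′ tail that is trimmed, tRNA precursors lose a 5′ leader and a 3′ trailer, and most snoRNAs are cut out of introns and trimmed at both ends. RNA polymerase III, which makes tRNAs, vault RNAs, Y RNAs and U6, stops at runs of T. The counts do not say which kind of RNA a fragment outside an annotated RNA came from.

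The sequences show what lies past the annotated 3′ end at loci with high and with low excess shares. Each is given 5′ to 3′ from RefSeq (GRCh38.p14), with the annotated RNA in lower case and the first bases of the 3′ flank, up to 60, in capitals. RNU7-1, the U7 snRNA (chr12:6943816-6943938, plus strand), had an excess share of 27.9% over all libraries, in a locus near the start of the gene C12orf57. TRG-CCC2-2, a glycine tRNA (chr16:636702-636806, minus strand), had 66.9%. TRI-AAT8-1, an isoleucine tRNA (chr6:27668583-27668716, plus strand), had 10.7%. TRP-TGG3-2 (chr14:20684016-20684147, plus strand) and TRP-TGG3-5 (chr16:3188094-3188203, plus strand) are proline tRNAs whose 72 annotated bases are identical, and they had 1.27% and 0%.
RNU7-1: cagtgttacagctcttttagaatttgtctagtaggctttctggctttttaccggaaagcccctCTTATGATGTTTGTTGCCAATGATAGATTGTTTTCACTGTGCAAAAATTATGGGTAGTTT
TRG-CCC2-2: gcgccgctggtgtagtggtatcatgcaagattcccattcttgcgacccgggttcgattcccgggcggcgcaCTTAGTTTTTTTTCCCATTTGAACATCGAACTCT
TRI-AAT8-1: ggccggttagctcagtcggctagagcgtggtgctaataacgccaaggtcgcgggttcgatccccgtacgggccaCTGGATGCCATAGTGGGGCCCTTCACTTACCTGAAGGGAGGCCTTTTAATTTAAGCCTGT
TRP-TGG3-2: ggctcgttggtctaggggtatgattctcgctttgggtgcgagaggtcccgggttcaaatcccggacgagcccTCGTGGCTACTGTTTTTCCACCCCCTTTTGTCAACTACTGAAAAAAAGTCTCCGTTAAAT
TRP-TGG3-5: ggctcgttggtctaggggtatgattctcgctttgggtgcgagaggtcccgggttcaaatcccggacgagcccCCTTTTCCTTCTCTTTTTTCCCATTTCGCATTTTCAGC

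The letters TTTT, searched on the RNA's own strand and counted also inside longer T runs, first appear at flank base 31 in RNU7-1. In the tRNAs they first appear at base 6 in TRG-CCC2-2, base 44 in TRI-AAT8-1, base 13 in TRP-TGG3-2 and base 3 in TRP-TGG3-5. TRG-CCC2-2 had the highest excess share of these 4 tRNAs, with TTTT close to its annotated end. At least 30 bases of 3′ flank could be read for 8 tRNA members, and 7 of them held TTTT in those bases. For comparison, TTTT occurred in the first 30 bases of 12.2% of 35116 RefSeq promoter windows. The flanks of most members are not covered by the sequences used here.

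Small RNA libraries held 723919, 1219718 and 503699 fragments in mut and 515938, 493314 and 585737 in WT. Library 3 of mut stands apart. Compared over the reconstructed loci, the chi-square per degree of freedom was 122 and 112 between it and mut libraries 1 and 2, against 27 between those 2 and 11.5 to 12.4 between WT libraries. Fits without it are given where it changes the calls. Total RNA libraries held 8315986 to 12675042 counts in genes. DIS3L2 itself, which may sum the recoded and the endogenous transcript, stood at 1092 ± 51.6 CPM (counts scaled to library depth) in mut against 784 ± 25.8 in WT (SD, n = 3), a log2 difference of 0.48 (SE 0.05, edgeR adjusted p = 1.9e-07). Of 15 cell type markers listed, 6 were tested in total RNA, and 4 were higher and 1 lower in mut. Over all genes tested, 13% were called higher and 14.2% lower. Among the 5 genes listed for HEK293, the neurofilament genes NEFL and INA were higher (log2 0.51 and 0.55, edgeR adjusted p = 4.7e-06 and 5.9e-05) and LIN28B was lower (-0.22, adjusted p = 0.023). PAX2 and GAL were not tested. Their counts were 10, 5 and 6 in mut against 5, 5 and 4 in WT for PAX2. For GAL they were 1, 2 and 2 against 4, 11 and 8. The fibroblast collagen genes COL3A1 and COL1A1 were higher (2.03 and 0.83, adjusted p = 0.0011 and 0.033). PDGFRA, also listed for fibroblasts, was not called (0.56, edgeR adjusted p = 0.21). Summed with PDGFRA the collagen genes stood at 4.43 to 6.66 CPM in mut libraries against 2.6 to 3.55 CPM in WT libraries. The blood, liver and endothelial genes listed were not tested. Among these the T cell gene CD3E was at 0 throughout, and the highest count in any library was 8, for VWF. The part of these markers in the results was not tested.

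Most of these loci held almost nothing beyond the annotated RNA. The median excess share of the 475 loci was 1.67%, with quartiles of 0.127% and 7.94%. Of these loci 271 were above 1%, 108 above 10%, 33 above 50% and 14 above 90%, and 67 had no fragment outside the annotated RNA. The annotated RNAs had a median length of 81 nt and the loci of 194 nt. Loci reached past the 3′ end by a median of 52 nt (quartiles 15.75 and 113, longest 1004) and past the 5′ end by 44 nt, over all 608. The 3′ flank was the longer in 357 loci and the 5′ flank in 248. A fragment can be counted both in a locus and in its annotated RNA, and the rule for fragments that cross an annotated end is not given in the sources used here. In 8 loci the annotated RNA even had more fragments than the locus, and all 8 are spliced models, among them both loci of SNORD3A, the U3 snoRNA. Of the 608 loci 18 are spliced.

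RNA classes differed in how much of their loci lay outside the annotation. The 230 tRNA loci had a median excess share of 4.92%, and 81 of them (35.2%) were above 10%. The 91 loci of C/D box snoRNAs, which guide 2′-O-methylation of rRNA and snRNA, had a median of 0.362%, with 14 above 10% and 7 above 50%. The 89 loci of H/ACA box snoRNAs, which guide pseudouridylation, had a median of 0.131%, with 2 above 10% and 31 without any outside fragment. Spliceosomal and U7 snRNAs (24 loci) had 0.107%, although their loci reached past the 3′ end by a median of 187.5 nt, against 62 nt for tRNAs and 12 nt for H/ACA snoRNAs. The 13 loci of scaRNAs, which guide snRNA modification in Cajal bodies, had 0.302% and none above 10%. Summed over their loci, 18852 of 1481220 snRNA fragments and 404 of 124754 H/ACA snoRNA fragments lay outside. Of the 18852, 16491 came from the RNU4-1 locus. The order of these classes thus depends on the summary, and the snRNA sum rests largely on that locus.

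Within the 457 unspliced loci the excess share and the 3′ flank length had a Spearman rho of 0.26. The 5′ flank length gave 0.25 and the number of locus fragments gave -0.25. These loci share the same 6 libraries, and the values are a description. With spliced loci included, 38 reached at most 3 nt past the 3′ end. Their median excess share was 0%, and 3 were above 10%, 1 locus each of SNORD65, SNORD22 and the tyrosine tRNA TRY-GTA6-1. Of the 150 loci reaching more than 100 nt, the median was 3.6% and 49 were above 10%. RNU12, the U12 snRNA of the minor spliceosome, shows the opposite combination. Its locus (chr22:42615241-42615728) runs 335 nt past the 3′ end, and only 6 of 420730 fragments lay outside the annotated RNA.

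**Figure D1:**
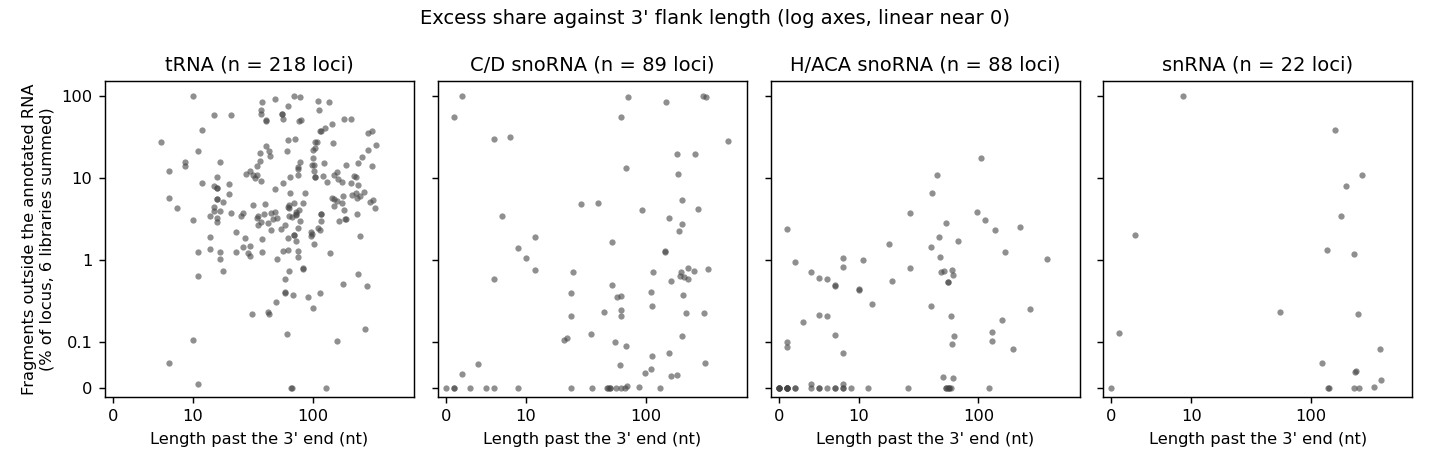
Excess share (percentage of locus fragments outside the annotated RNA, all 6 libraries summed) against the length of the locus past the annotated 3′ end in nt, for unspliced tRNA, C/D snoRNA, H/ACA snoRNA and snRNA loci with at least 60 fragments. Each point is 1 locus on log axes that are linear near 0; tRNA points gather around their median of 4.92%, while H/ACA snoRNA points lie mostly below 1%.

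Several C/D snoRNA loci consisted largely of fragments that were not counted in the annotated RNA. The SNORD65 locus (chr17:16441217-16441598) had 16773 fragments, of which 426 were counted in SNORD65. Its excess share was 97.4%, 97.8% and 96.7% in mut against 97.6%, 97.6% and 97.2% in WT, so all 6 libraries were alike and the groups overlapped. A second locus (chr17:16441191-16441300) contains the same RNA and had 16771 fragments. The stretch that both loci share extends only 9 nt before and 2 nt after the 73 nt annotated RNA. SNORD102 behaved likewise on a smaller scale. Its locus extends 8 nt before and 6 nt after the annotated 72 nt. Of its 5961 fragments 29.2% (95% Clopper-Pearson interval 28.0 to 30.3%, counting error only) were not counted in SNORD102, with 27.4% to 30.5% in single libraries. Flanks this short are below the smallest insert of 20 nt. The fragments not counted in SNORD65 or SNORD102 can therefore overlap these RNAs, and the excess share does not show longer transcripts there.

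In other C/D snoRNA loci a second snoRNA gene lay inside the same locus. The SNORD30 locus (chr11:62853591-62854093) had 45068 fragments, 94.6% outside SNORD30, and it also holds SNORD29. The SNORD50B locus (chr6:85677268-85677717), with 95.1% outside, also holds SNORD50A. Another short RefSeq gene of at most 300 nt overlapped 6 of the 33 loci above 50% (18.2%) and 23 of the 442 others (5.2%). Genes on either strand were counted, also where they overlapped in part, and longer genes were not counted. SNORD52 and SNORD61 had no such neighbour in their loci. SNORD52 (chr6:31837071-31837205) had an excess share of 53.5%, 56.9% and 54.8% in mut and 50.8%, 53.4% and 53.1% in WT, with every mut library above every WT library. The log2 difference was 0.15 (SE 0.19, edgeR adjusted p = 0.99; exact two-sided permutation p = 0.1 for the mean share, the smallest 3 against 3 libraries allow). SNORD61 (chrX:136879052-136879334) had 79.7% to 89.2% in mut and 79.9% to 90.3% in WT.

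Of the C/D snoRNA loci, the 3 described next were more abundant than SNORD30 and SNORD52 and had under 1% outside. SNORD118, the U8 snoRNA needed for large ribosomal subunit rRNA processing, had 78259 locus fragments and an excess share of 0.742%. SNORD24 had 0.702% of 75888 fragments although its locus runs 196 nt past the 3′ end. SNORD37 had 0.769% of 50344 fragments with a flank of 330 nt. Among H/ACA snoRNAs, SNORA18 had 1 outside fragment among 11792.

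Transfer RNA loci ranged from no outside fragment to no annotated one. TRU-TCA1-1, the selenocysteine tRNA that decodes UGA in selenoprotein mRNAs, had 246185 fragments, of which 0.304% were outside. TRE-TTC4-1, a glutamate tRNA, had 0.055% of 88628. By contrast TRK-CTT1-1, a lysine tRNA (chr14:58239847-58240027), had 87.9%, 91.9% and 89.8% outside in mut and 89.4%, 92.9% and 91.5% in WT, of 33899 fragments. TRR-CCG2-1, an arginine tRNA (chr17:68019819-68020045), had 93.7% to 95.6% outside over the 6 libraries. TRE-TTC2-1, another glutamate tRNA (chr13:44917857-44918057), had 16 of 1276 fragments in the annotated RNA. These loci reach 48, 78 and 70 nt past the 3′ end and 60, 76 and 59 nt before the 5′ end, and the counts do not say on which side the fragments lie. Genes of tRNAs occur in near-identical copies, and how fragments that match several copies were assigned is not given in the sources used here, so values of single copies are uncertain. The locus of TRP-TGG3-5 had 0 of 720 fragments outside, which allows a share of up to 0.417%.

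**Figure D2:**
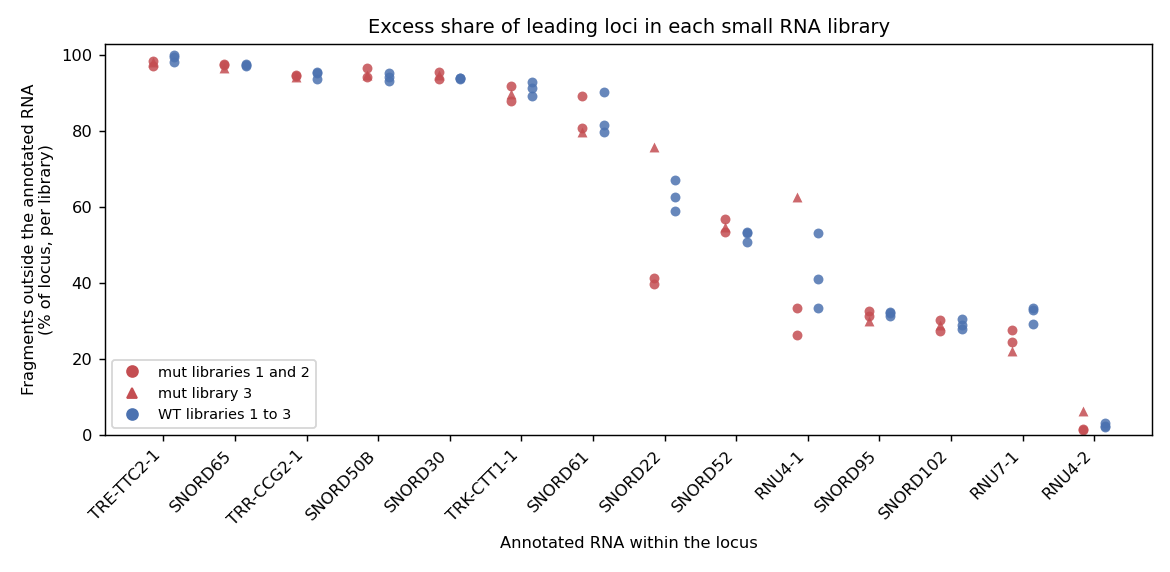
Excess share in percent for 14 loci in each small RNA library, with mut libraries in red (library 3 as a triangle) and WT libraries in blue. Most loci show libraries of both groups at the same level, while mut library 3 stands high in SNORD22 (76.0%), RNU4-1 (62.7%) and RNU4-2 (6.40%).

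Among snRNAs, the U5 loci were nearly free of outside fragments. RNU5A-1, the most abundant member, had 508189 fragments and an excess share of 0.055%, RNU5B-1 had 0.016% with a 3′ flank of 381 nt, and RNU5E-1 had 0.034%. The U4 genes differed from each other. RNU4-1 (chr12:120292938-120293297, 159 nt past the 3′ end) had an excess share of 33.6%, 26.4% and 62.7% in mut and 41.0%, 53.1% and 33.5% in WT. RNU4-2 (chr12:120291760-120291988, 3 nt past the 3′ end) had 1.61%, 1.19% and 6.40% in mut and 2.46%, 3.22% and 2.10% in WT. In both genes mut library 3 was the highest and mut library 2 the lowest, and the groups overlapped. U4 copies are near-identical, so the split of fragments between them is uncertain.

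RNU7-1 (chr12:6943810-6944251, spliced model, 373 nt past the 3′ end) had an excess share of 27.7%, 24.5% and 22.1% in mut and 33.3%, 32.9% and 29.4% in WT. The gene C12orf57 starts nearby, and the bases before its start cover only 143 nt of this flank. How many of the outside fragments belong to C12orf57 was not tested. All 3 mut libraries lay below all 3 WT libraries, with means of 24.8 ± 2.78% and 31.9 ± 2.17% (SD, n = 3). The log2 difference of outside to annotated fragments was -0.50 (SE 0.20), which did not pass over all loci (edgeR adjusted p = 0.87, exact two-sided permutation p = 0.1). RNU4ATAC, the U4 form of the minor spliceosome, had 1.2%, 0.689% and 1.44% in mut and 0.855%, 2.78% and 1.74% in WT, so the groups overlapped.

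A few annotated RNAs had no fragment of their own in a locus that was read. MIR15A, the hairpin of the microRNA miR-15a, had 0 of 121 fragments of its locus (chr13:50048984-50049263). That locus also holds most of the MIR16-1 hairpin, and the mature 5p microRNAs of both share their seed (bases 2 to 8, in capitals; RefSeq, GRCh38.p14).
hsa-miR-15a-5p: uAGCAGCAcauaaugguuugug
hsa-miR-16-5p: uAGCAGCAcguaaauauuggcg
The locus stood at 29.0, 30.3 and 47.6 FPM (fragments scaled to library depth) in mut and 27.1, 20.3 and 25.6 in WT. All mut libraries were above all WT libraries, but the log2 difference of 0.59 (SE 0.29) did not pass (edgeR adjusted p = 0.62). MIR3143 had 0 of 145 fragments of its locus, TRE-CTC12-1 had 0 of 101 and RNU6-3P, a U6 pseudogene, had 0 of 89. The unnamed ENST00000617238.1 had 0 of 1820 fragments of a 1230 nt locus (chr1:630282-631511).

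The longest 3′ flank, of 1004 nt, belonged to the mitochondrial proline tRNA TRNP (chrM:14952-16569), where 1.49% of 6502 fragments lay outside. The mitochondrial threonine tRNA TRNT, read from the other strand, had a flank of 406 nt and 3.20% of 2502 fragments outside. The next longest named flank was that of SNORD36C (489 nt), with 27.7% of 2093 fragments outside.

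The first comparison between variants asked whether the share outside the annotated RNA depended on DIS3L2 activity. No locus passed the test with all libraries. Of 237 members with at least 10 fragments in each part, 0 were higher and 0 lower in mut (edgeR quasi-likelihood test with Benjamini-Hochberg adjustment over 247 loci, adjusted p under 0.05; called among all loci, 0%). At an unadjusted p under 0.05 there were 9 higher and 3 lower, against 10 and 3 over all 247 loci. Limma with either offset also called 0. The median log2 difference of these members was -0.01, as over all 247 loci. Over the 475 described loci, the median excess share was 0.820%, 1.14% and 1.89% in mut against 0.574%, 0.948% and 0.980% in WT. The groups overlapped, with mut library 3 highest, and the means were 1.28 ± 0.552% and 0.834 ± 0.226% (SD, n = 3). Without mut library 3 the mut mean was 0.978%.

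By class, summed over tRNA loci the excess share was 9.23%, 8.66% and 8.89% in mut and 7.81%, 8.73% and 7.81% in WT. Summed over C/D snoRNA loci it was 12.6 ± 0.938% in mut and 12.1 ± 0.577% in WT. RNAs that lie in more than 1 locus enter these class sums more than once. Of the 140876 outside fragments of C/D snoRNA loci, 16347 and 16345 came from the SNORD65 loci, which overlap each other. Of the 10 snRNA loci tested, 9 had a lower share in mut, with a median log2 difference of -0.43, and 2 of them had an unadjusted p under 0.05. Over all 247 loci, 119 had a higher share in mut, and the median was -0.01. Without mut library 3 the snRNA median was -0.80, against -0.04 over all loci. The snRNA loci share the same libraries and include U4 copies that are near-identical, so their count is a description. The 3 vault RNA loci together had 5.66 ± 2.36% in mut and 8.68 ± 2.58% in WT (SD, n = 3), from 55 outside fragments in all. The tRNA median over 157 tested loci was -0.02.

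SNORD22 was the exception when mut library 3 was left out. Its locus (chr11:62852909-62853474) also holds SNORD31 and ends 1 nt past the 3′ end of SNORD22. The excess share was 41.4%, 39.6% and 76.0% in mut and 67.2%, 62.7% and 58.98% in WT. Mut libraries 1 and 2 were below every WT library and library 3 above them all. With all libraries the log2 difference was -0.63 (SE 0.49, edgeR adjusted p = 0.99). Without mut library 3 it was -1.33 (edgeR adjusted p = 0.0019), the only call among the members in that fit (0.405% of all loci lower, 0% higher).

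The second comparison asked whether the loci as a whole were more or less abundant in mut. Of 457 members tested, 1 was higher and 0 were lower (edgeR quasi-likelihood test, adjusted p under 0.05 over 589 loci; called among all loci, 0.17% higher and 0% lower). The median log2 difference was 0.01 for members and for all loci. At an unadjusted p under 0.05, 20 members were higher and 12 lower, against 30 and 16 over all 589 loci, and DESeq2 called 2 higher and 0 lower. Counting only the annotated RNA, 1 of 418 members was higher and 0 lower (0.179% and 0% of 559 annotated features). There 18 were higher and 11 lower at an unadjusted p under 0.05, against 38 of all 559 features in either direction. DESeq2 called 2 higher and 0 lower. Without mut library 3, 27 of 429 were higher and 3 lower, but the shares over all annotated features are not given for that fit. In the matching fit of whole loci 5.82% of all loci were higher and 0.969% lower.

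The locus called was that of VTRNA1-2 (chr5:140718903-140719110), a vault RNA, one of the short polymerase III transcripts bound to the vault particle. It stood at 91.2, 83.6 and 81.4 FPM in mut and 23.3, 18.2 and 20.5 FPM in WT. The lowest mut library was above the highest WT library. The log2 ratio of mut to WT was 2.14 (SE 0.28, edgeR adjusted p = 0.010), and for the annotated RNA alone 2.16 (SE 0.27, adjusted p = 0.0072). The locus extends 97 nt past the 3′ end, but only 5 of its 242 fragments lay outside. Leaving out mut library 1 or 2 or WT library 2 or 3 ended the call for the locus (adjusted p between 0.058 and 0.12), with log2 ratios from 1.99 to 2.16, and so did the replicate block (2.12, adjusted p = 0.074). For the annotated RNA alone the call ended without mut library 1 (edgeR adjusted p = 0.057), WT library 2 (0.096) or WT library 3 (0.13).

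The other vault RNAs of the same cluster lay in the same direction. VTRNA1-1 stood at 67.7, 87.7 and 55.6 FPM in mut and 33.0, 22.3 and 46.1 in WT, and the groups did not overlap. Its log2 ratio of 1.17 (SE 0.34) did not pass with all libraries (edgeR adjusted p = 0.25) and was 1.38 without mut library 3 (adjusted p = 0.014). VTRNA1-3 stood at 105, 101 and 117 FPM in mut and 60.1, 99.3 and 87.1 in WT (log2 ratio 0.48, SE 0.23, edgeR adjusted p = 0.61), and this did not pass although the groups did not overlap. VTRNA1-3 had the largest excess share of the vault RNAs, 11.8%, with 6.58%, 13.0% and 13.6% in mut and 9.68%, 14.3% and 13.7% in WT.

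Y RNAs, short polymerase III transcripts bound by the Ro60 protein, differed from each other. RNY4 stood at 1304, 1768 and 1576 FPM in mut and 762, 932 and 949 in WT, so that the groups did not overlap. Its log2 ratio of 0.91 (SE 0.17) missed the threshold (edgeR adjusted p = 0.061) and passed without mut library 3 (0.99, adjusted p = 0.0036) and with DESeq2 (adjusted p = 0.032). RNY4 had 0 of 5304 fragments outside the annotated RNA, which allows a share of up to 0.0566%. RNY3 stood at 1479, 1957 and 1707 FPM in mut and 1545, 1770 and 2409 in WT, with overlapping groups, and 2.24% of its fragments lay outside. RNY1 stood at 637, 661 and 854 FPM in mut and 676, 703 and 685 in WT.

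**Figure D3:**
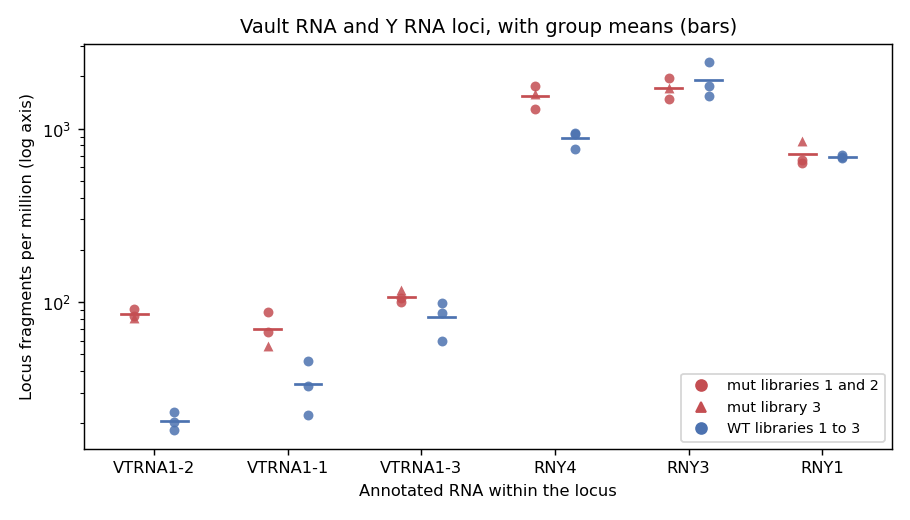
Locus level in FPM on a log axis for the vault RNA and Y RNA loci, with each library as a point (mut in red, library 3 as a triangle; WT in blue) and bars at group means. VTRNA1-2, VTRNA1-1, VTRNA1-3 and RNY4 have every mut library above every WT library, while RNY3 and RNY1 overlap.

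Without mut library 3, snRNA loci made up much of a larger set of calls. In that fit 29 of 472 members were higher and 4 lower (edgeR quasi-likelihood test; called among all 619 loci, 5.82% higher and 0.969% lower). Of the 29, 13 were snRNA loci, 6 H/ACA snoRNAs, 3 tRNAs, 2 vault RNAs and 2 loci of 1 unnamed RNA, with RNY4, SCARNA16 and SNORD17 as the others. They hold 26 distinct RNAs. The 4 lower loci were tRNAs: TRQ-CTG9-1 (log2 ratio -1.35, adjusted p = 0.0076), TRV-CAC1-4 (-1.34), TRV-CAC2-1 (-0.97) and an unnamed tRNA. With all libraries 20 of 22 snRNA loci had a log2 ratio above 0, with a median of 0.47 and 4 at an unadjusted p under 0.05. Without library 3, 13 of 23 passed and the median was 0.76, against 0.03 over all loci.

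Single libraries lay as follows. RNU5F-1, a U5 gene, stood at 7613, 8610 and 2400 FPM in mut and 3623, 3326 and 4843 in WT. Mut libraries 1 and 2 were above every WT library and mut library 3 below them all. RNU5A-1 stood at 147561, 167251 and 69762 FPM in mut and 98781, 98905 and 106657 in WT, with the same order. RNU4ATAC stood at 808, 714 and 415 FPM in mut and 454, 365 and 492 in WT, with mut library 3 inside the WT range. Its log2 ratio was 0.70 (SE 0.30, edgeR adjusted p = 0.60), and without mut library 3 it was 0.99 (SE 0.18, adjusted p = 0.0076).

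The total RNA libraries, made separately, gave a second readout of the genes whose RNA lies in these loci. Of 272 such genes 108 were tested, and 54 were higher and 0 lower in mut (edgeR quasi-likelihood test, adjusted p under 0.05 over 14409 genes; called among all genes, 13% higher and 14.2% lower). At an unadjusted p under 0.05, 62 were higher and 1 lower, against 5523 of all 14409 genes in either direction. DESeq2 called 44 higher and 0 lower. The median log2 ratio of the 108 was 0.42, against -0.01 over all genes. These libraries favour longer RNA and the counts do not separate mature from extended forms. Reads that overlap several genes are not in the gene counts, and snoRNA genes inside introns can lose reads in this way.

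Among snRNA genes in total RNA, 20 of 22 tested were higher and 0 lower, with a median log2 ratio of 1.11. The 2 vault RNAs and 2 Y RNAs that rose were VTRNA1-2, VTRNA1-1, RNY4 and RNY1. H/ACA snoRNAs had 17 of 48 higher (median 0.30), C/D snoRNAs 6 of 19 (0.31) and scaRNAs 6 of 12 (0.30), with none lower in any of these.

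Counts of RNU4ATAC in total RNA were 804, 705 and 848 for mut against 64, 54 and 53 for WT. The groups were far apart, at 90 ± 7.33 and 5.79 ± 1.35 CPM (SD, n = 3; log2 ratio 4.0, SE 0.12, edgeR adjusted p = 7.5e-20). RNVU1-15, a U1 variant gene, was counted 406, 358 and 528 times in mut against 92, 119 and 57 times in WT (log2 ratio 2.50, SE 0.13, edgeR adjusted p = 1.2e-13). RNU5F-1 rose by 1.82, RNVU1-7 by 1.54 and RNU5A-1 by 1.41 on the log2 scale. RNU4-1 and RNU4-2 had log2 ratios of 0.29 (SE 0.13, edgeR adjusted p = 0.11) and 0.25 (SE 0.13, adjusted p = 0.15). RNU7-1, with its large excess share in small RNA, and RNU12, with almost none, had no counts in any total RNA library. RNU12 had 420730 locus fragments in small RNA and RNU7-1 had 2294, so 0 counts do not show that these RNAs were absent. Why they had none was not tested.

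VTRNA1-2 was counted 22, 31 and 20 times in mut total RNA against 7, 5 and 6 times in WT, with no overlap. Its log2 ratio of 2.22 (SE 0.35, edgeR adjusted p = 3.3e-05) stood beside 2.14 for its small RNA locus. VTRNA1-1 rose by 1.28 (SE 0.29, adjusted p = 0.0015), while VTRNA1-3 had a log2 ratio of 0.16 (SE 0.08, adjusted p = 0.15). RNY4 rose by 1.12 (SE 0.17, adjusted p = 1.5e-05) and RNY1 by 0.79 (SE 0.16, adjusted p = 0.00079). For RNY1 DESeq2 did not call the rise (adjusted p = 0.11).

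Of 85 genes tested in both assays, 41 were higher in mut total RNA. The small RNA locus of 32 of these 41 had a log2 ratio above 0, 9 had an unadjusted p under 0.05 and were higher there, and 1, VTRNA1-2, was called. Of the other 44 genes, 24 had a log2 ratio above 0 and 0 were higher at an unadjusted p under 0.05 by edgeR. Over all 589 loci these counts were 301 and 30. The difference between the 41 and the 44 genes was not tested. Of the 26 distinct RNAs whose locus was higher without mut library 3, 18 were tested in total RNA and 17 of these were higher there. Of the 18, 12 were snRNAs, a class in which 20 of 22 genes were higher in total RNA in any case. RNU4-2 was the gene not called. Whether mut library 3 differs for a technical reason was not tested.

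**Figure D4:**
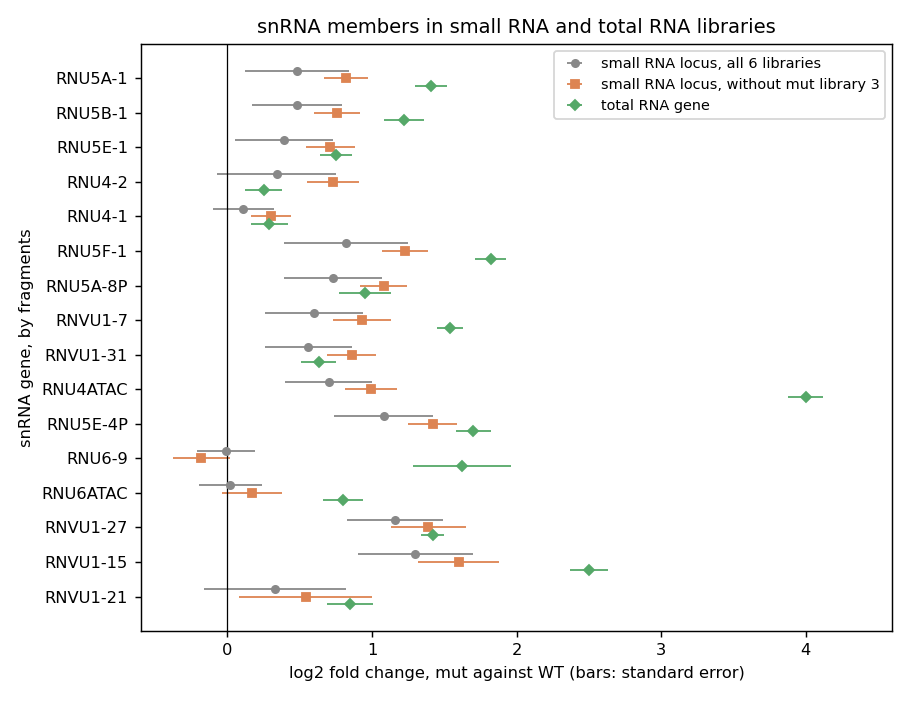
Log2 ratios of mut against WT with standard errors for 16 snRNA members tested in both assays, ordered by fragments: small RNA locus with all 6 libraries (grey circles), small RNA locus without mut library 3 (orange squares) and gene in total RNA (green diamonds). RNU4ATAC lies at 4.0 in total RNA against 0.70 and 0.99 in small RNA, while most other genes lie between 0 and 2.

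Genes that trim, tail or bind the 3′ ends of small RNAs were also measured in total RNA. Of the 31 genes listed, 7 were higher and 6 lower in mut, with a median log2 ratio of -0.05, against 13% higher and 14.2% lower among all genes. DIS3L2 is among the 7. The uridylyltransferase TUT7, which adds the uridines that DIS3L2 prefers, was at 31.2 ± 3.54 CPM in mut against 45.4 ± 4.57 in WT (SD, n = 3; log2 ratio -0.53, SE 0.09, edgeR adjusted p = 9.8e-05). The related TUT4 fell by 0.34 (adjusted p = 0.00061), as did SSB, the La protein that binds 3′ uridines of new polymerase III transcripts (adjusted p = 0.0024). TOE1, a deadenylase that trims snRNA tails, rose by 0.37 (adjusted p = 0.00082). ELAC2, which cuts tRNA trailers, had a log2 ratio of 0.05 (adjusted p = 0.55), and USB1, which trims U6, of -0.24 (adjusted p = 0.096).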

How the data were processed

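For each small RNA feature the authors deposited whole-number fragment counts, an FPM signal (fragments scaled to library depth) and FPKM, per the file headers. Read counts per gene, not normalized, are what the authors deposited for total RNA; rows naming no gene, 57.8% to 63.2% of reads, were left out. Per the submitters' processing notes the build was hg38 and the tools included STAR 2.4.0 and HTSeq 0.6.1. The reconstruction of loci is not given in the sources used here.

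Members were found by coordinates and strand, and 568 of 608 were named from RefSeq genes (GRCh38.p14) with both ends within 5 nt. Loci and annotated RNAs were fitted apart with edgeR 4.0.16 (filterByExpr, TMM, quasi-likelihood F test, two-sided, R 4.3.3), with the FPM denominators as library sizes. The share test is the interaction of part (outside or annotated) and variant, with each library as its own baseline. Adjusted p-values are Benjamini-Hochberg over all loci, features or genes tested, at 0.05. Alternatives used DESeq2 1.42.0, limma 3.58.1 (also on log2(FPKM + 1)), no filter, other minimums and left-out libraries. The fits were also run on simulated data in which no library stood apart. Those runs do not show how the fits behave with a library such as mut library 3. Named members follow a rule: the most abundant, those with the highest shares or longest flanks, those called, the leading member of each class, and vault RNAs, Y RNAs and snRNAs; others were named after their values were seen. Members and lists were chosen with earlier results of these data known. Intervals are 95% Clopper-Pearson; a limit for 0 uses 3 counts.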

Additional observations from a re-analysis of the deposited data

How the results depend on the processing

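The counts of called loci depended on the settings. Shares over all features are given only for the main fits and for the locus and share fits without mut library 3. The other counts below stand without such a share. For whole loci (1 higher, 0 lower), DESeq2 called 2 higher, no filter gave 16 higher and 3 lower, and a replicate block gave 0 higher. Leaving out each library in turn gave 0 to 29 higher and 0 to 4 lower, both highest without mut library 3. For annotated RNAs (1 higher, 0 lower), DESeq2 called 2 higher, no filter gave 11 higher and 2 lower, and left-out libraries gave 0 to 27 higher and 0 to 3 lower (both highest without mut library 3). For the excess share, 0 calls became 1 lower without mut library 3 (range 0 to 1 over left-out libraries); no other alternative called any. The 54 genes higher in total RNA ranged from 44 with DESeq2 to 60 without mut library 1, with 0 lower under every alternative run. The replicate numbers did not pair the small RNA libraries: deviations of same-numbered libraries correlated at 0.202, -0.129 and -0.383 over 589 loci. In that block VTRNA1-2 stood at 2.12 (adjusted p = 0.074). Log2 values that changed sign, none of them called, had these ranges over left-out libraries: RNY3 locus -0.17 to 0.12 (0.04 without mut library 3), RNU4-1 share -0.79 to 0.32 (0.08 without mut library 1, 0.16 without WT library 2), SNORD65 share -0.19 to 0.10, and VTRNA1-3 share -0.47 to 0.03. In total RNA RNU4-1 passed without the filter (0.28), with the block (0.30) and without mut library 1 (0.43) or WT library 1 (0.55), as did RNU4-2 (0.24, 0.25, 0.40 and 0.49). The cause was not tested. The share test did not cover 238 of the 475 described loci, which had fewer than 10 fragments in the annotated or the outside part; among them are deep loci such as RNU12, with 6 of 420730 fragments outside.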
